A study of Arabidopsis thaliana with 6 samples.

Results

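MIR841a and MIR841b are a pair of microRNA (miRNA) genes of Arabidopsis thaliana, and the table of read counts lists a 5p and a 3p sequence for each of them. These 4 rows, of 294 mature sequences in all, were chosen by name, with a difference between the loci in the response to a brassinosteroid already known from the same counts. The epiBL values that chose them are therefore described here without a test. Seedlings were grown in shaking liquid culture and treated for 90 min with 1 µM epibrassinolide (epiBL) or with its solvent alone, with 3 biological replicates in each group. All plants, controls included, carried the bri1-5 mutation of the brassinosteroid receptor BRI1 together with a Flag-tagged wild-type BRI1 driven by the gene's own promoter. The 6 small RNA libraries held between 2050074 reads (epiBL replicate 3) and 4482479 reads (control replicate 1) identical to a listed miRNA, and from 206 to 226 sequences with a read. In the shallowest library 3 reads corresponded to 1.46 CPM, in which the reads of a sequence are scaled to a common library total. Levels given below as normalised counts or CPM are on totals adjusted by TMM, a scaling that assumes most sequences to be alike between libraries, unless plain totals are named. Whole seedlings were sampled, so fewer cells that make a miRNA and less miRNA per cell cannot be told apart. The table holds no mRNA, so the labelled tissue was not checked against marker genes.

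A plant miRNA is cut as a duplex from the stem of a folded precursor RNA by a Dicer-like enzyme, and one strand of the duplex, from the 5p or the 3p arm, usually stays in an Argonaute protein. There it guides cleavage or repression of mRNAs with a closely complementary site. Young plant miRNA genes are thought to arise in part from inverted copies of protein-coding genes, and such miRNAs can match the gene family they came from. Brassinosteroids are steroid hormones that bind BRI1 at the cell surface and act through the transcription factors BZR1 and BES1 to promote growth.

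The mature sequences show which reads can tell the loci apart, and are given 5′ to 3′ as DNA, as the deposited table lists them. In the 5p arm the capital marks the single base that differs, a T12G change, written with the base of miR841a-5p before the position and that of miR841b-5p after it, and with position 1 at the 5′ end.
miR841a-5p: tacgagccactTgaaactgaa
miR841b-5p: tacgagccactGgaaactgaa
In the 3p arm the capitals mark the 19 bases that both rows share.
miR841a-3p: ATTTCTAGTGGGTCGTATTca
miR841b-3p: caATTTCTAGTGGGTCGTATT
All 4 sequences have 21 bases. The difference between the 5p rows lies outside the seed (bases 2 to 8), so both 5p rows share the seed.
5p seed, on miR841a-5p: tACGAGCCacttgaaactgaa
The 3p rows differ by position only: miR841b-3p starts 2 bases earlier. No other row of the table was within 3 substitutions of a MIR841 sequence.

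Each 5p sequence matched the TAIR10.1 assembly exactly at 1 place, whereas each 3p sequence matched at both loci. miR841a-5p lay on chromosome 4 at 7885393-7885413, minus strand, and miR841b-5p on chromosome 4 at 2184325-2184345, plus strand, 5.70 Mb away. miR841a-3p matched 7885296-7885316 on the minus strand and also 2184422-2184442 on the plus strand. miR841b-3p matched 2184420-2184440 on the plus strand and also 7885298-7885318 on the minus strand. Reads of the rows labelled 3p can thus come from either gene, and the locus in their names is a label of the annotated cut site rather than of the source. On this reference assembly, only the 5p rows separate the loci. The genome of the plants used was not examined, so differences from the reference at these loci were not tested.

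The hairpins from the first base of the 5p arm to the last base of the sequence listed as miR841a-3p are shown because the duplex, not only the mature strand, differs at that base. Each has 118 bases, read from TAIR10.1 in the direction of the miRNA, with the 5p arm and the miR841a-3p sequence in capitals.
MIR841a (chr4:7885296-7885413, minus strand): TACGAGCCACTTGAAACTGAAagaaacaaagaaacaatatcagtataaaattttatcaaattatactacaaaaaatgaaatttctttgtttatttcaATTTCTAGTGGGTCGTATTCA
MIR841b (chr4:2184325-2184442, plus strand): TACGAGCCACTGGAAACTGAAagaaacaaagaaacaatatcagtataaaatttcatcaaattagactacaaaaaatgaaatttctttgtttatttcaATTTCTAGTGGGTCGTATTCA
They were identical at 115 of 118 positions, with 3 substitutions and no gap, 1 of them in the 5p arm and the other 2 between the arms. In the predicted fold of lowest energy, the base at position 12 was unpaired in MIR841a and paired in MIR841b, where G faced T in the DNA letters, a wobble pair in RNA. That fold paired 18 of the 21 bases of the 5p arm in MIR841a and 19 of 21 in MIR841b. The predicted energies were -34.1 and -37.8 kcal/mol.

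The likeness of the loci extended far beyond the hairpins. Within 1000 bases on each side, 1 alignment of 2046 columns ran across both hairpins at 94.1% identity, and it reached the end of the window downstream. The MIR841a precursor (chromosome 4, 7885251-7885462) lay opposite HTA4 (AT4G13570), a gene for a histone H2A, the core histone family that packages DNA. Of the 21 bases of miR841a-5p, 16 lay opposite the last exon of HTA4 and 5 opposite the intron before it. The MIR841b precursor (chromosome 4, 2184135-2184629) overlapped AT4G04408 on the opposite strand and AT4G04409 on the same strand, annotated as pseudogenes of histones H2A 4 and H2A 11. Histone H2A sequence thus adjoined both miRNA genes.

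**Figure D1:**
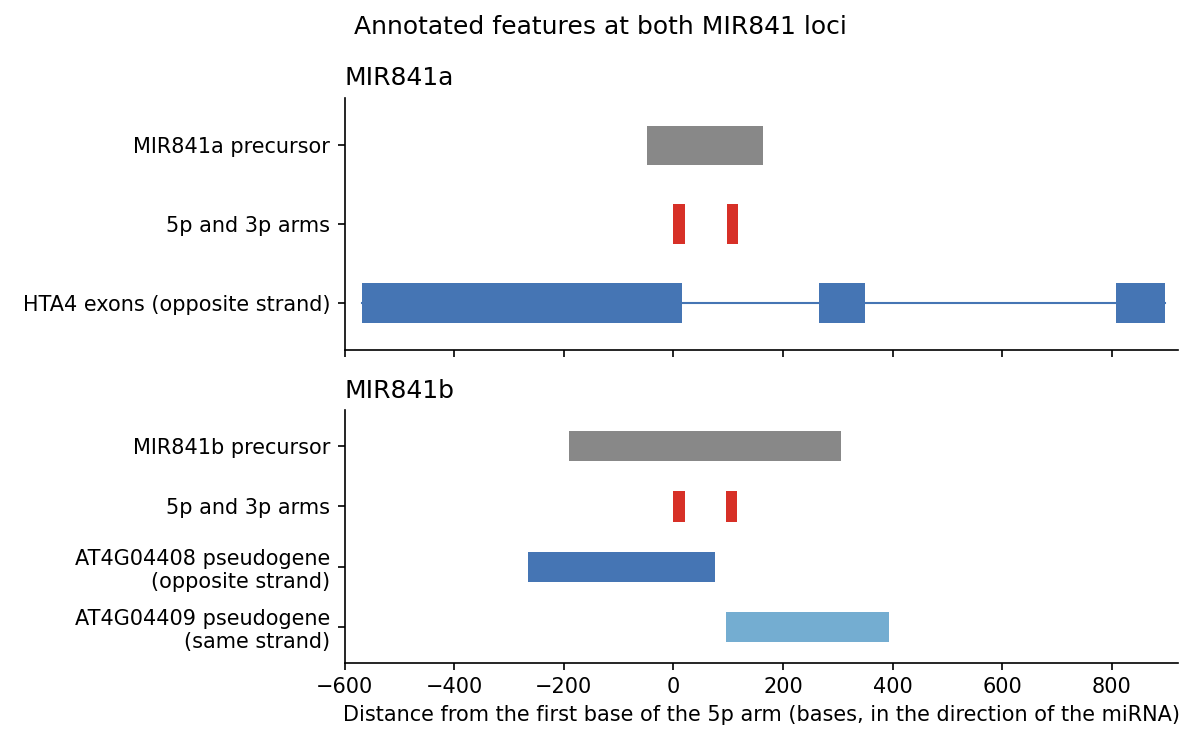
Annotated features at MIR841a and MIR841b, by distance in bases from the first base of the 5p arm, in the direction of the miRNA; grey bars are precursors, red bars the arms, blue bars exons of HTA4 (thin line: introns) or pseudogenes. Histone H2A exon sequence or a histone pseudogene lies opposite the 5p arm at both loci.

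Complementary sites in annotated transcripts were searched to see what the differing base faces. With at most 3 mismatches and no gap, a G:U pair counted as a mismatch, 4 genes had a site for miR841a-5p and 3 for miR841b-5p, of 36261 genes searched. None had one for either 3p sequence. HTA8 (AT2G38810), which encodes the histone variant H2A.Z, and the pseudogene AT4G04408 had a site for both 5p sequences. The HTA8 site lies in coding sequence on chromosome 2, minus strand, between 16219725 and 16220570, and is interrupted there by an intron of 825 bases. It is shown as read in the mRNA, with mismatched bases in capitals.
HTA8 site against miR841a-5p: ttcagtttcCagtggGtcgta
HTA8 site against miR841b-5p: ttcagtttccagtggGtcgta
It had 2 mismatches to miR841a-5p (G6C and T12G, the miRNA's base first, then the base that would pair with the site) and 1 to miR841b-5p (G6C). The AT4G04408 site, on the strand opposite miR841b-5p itself, had 1 mismatch to miR841a-5p (T12G) and 0 to miR841b-5p. HTA4 had a site with 3 mismatches for miR841a-5p (C17T, T18C, G19T), across the junction before its last exon, and none within the limit for miR841b-5p. The 16 bases of this site in the last exon lie opposite miR841a-5p itself. The exon before it, 7885064-7885147, is absent from another annotated HTA4 transcript. The remaining sites, each with 3 mismatches, were in AT1G64460 for miR841a-5p and in CTC1, which helps to maintain telomeres, for miR841b-5p. A complementary site is a match of letters, and no mRNA was measured here.

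The 5p arm of MIR841a was the most abundant of the 4 sequences. Its reads numbered 4894, 4310 and 3922 in control replicates 1, 2 and 3, and 4204, 3812 and 2092 in epiBL replicates 1, 2 and 3. miR841b-5p had 1191, 991 and 840 reads in the controls and 589, 484 and 267 with epiBL. By mean CPM on plain library totals over the 6 libraries, miR841a-5p ranked 30 among the 294 sequences and miR841b-5p ranked 49.

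The 3p rows were scarcer. miR841a-3p had 314, 263 and 245 reads in the controls and 235, 157 and 94 with epiBL, and ranked 71. miR841b-3p had 11, 9 and 17 reads in the controls and 8, 4 and 6 with epiBL, and ranked 148. miR841b-3p was the only one of the 4 that did not pass the filter on low counts (edgeR's filterByExpr), which kept 148 of the 294 sequences, so 3 of the 4 were in the fit.

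The order of the 4 levels was the same in every library. Ratios were taken within a library, so that depth cancels. Which row of a ratio was the larger had played no part in the choice of the genes. The shift of the ratio of miR841a-5p to miR841b-5p with epiBL is the contrast that chose them, and epiBL libraries enter its mean. miR841a-5p exceeded miR841b-5p by a mean log2 ratio of 2.53 ± 0.44 (SD, n = 6 libraries, higher in 6 of 6), a geometric mean of 5.76 times. This SD spans 2 separate groups and is wider than the spread inside either. The log2 ratio averaged 2.13 (SD 0.092) over the control libraries and 2.93 (SD 0.080) over the treated ones. The pooled mean lies between these values and describes neither group. miR841a-5p exceeded miR841a-3p by 4.20 ± 0.27 (SD, n = 6, higher in 6 of 6), a geometric mean of 18.4 times. Here too the groups differed, with averages of 4.00 (SD 0.036) over the control libraries and 4.41 (SD 0.23) over the treated ones. miR841b-5p exceeded miR841b-3p by 6.20 ± 0.61 (SD, n = 6, higher in 6 of 6), or 73.6 times. miR841a-3p exceeded miR841b-3p, the same arm cut 2 bases earlier, by 4.53 ± 0.55 (SD, n = 6, higher in 6 of 6), or 23.1 times. In two-sided exact sign-flip permutation tests each of these 4 ratios gave p = 0.03125, the smallest that 6 libraries allow, and 0.03125 after Benjamini-Hochberg adjustment over the 4. Treated and control libraries entered these tests together, and the 3 controls alone cannot go below 0.25. With a log2 ratio above 0 in 6 of 6 libraries, p could only be 0.03125, whatever the size of the ratio. The 4 ratios are built from the same 4 rows and are not independent, so the adjustment adds nothing. For miR841a-5p over miR841b-5p, the 6 libraries also gave the contrast that chose the genes, so nothing is read from its p.

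Because both 3p rows match both loci, the arm ratio of a single locus is a ratio of labelled rows. Summed over both loci in each arm, the mean log2 ratio of 5p to 3p was 4.38, in place of 4.20 for the rows labelled MIR841a and 6.20 for those labelled MIR841b. On the same sums, the 5p reads were 18.7, 19.5 and 18.2 times the 3p reads in the controls and 19.7, 26.7 and 23.6 times with epiBL. Control libraries had a 3p share of 5.06% ± 0.168 of all MIR841 reads, and epiBL libraries one of 4.17% ± 0.613 (SD over 3 libraries each). The 5p arm therefore supplied nearly all counted MIR841 reads in both groups.

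**Figure D2:**
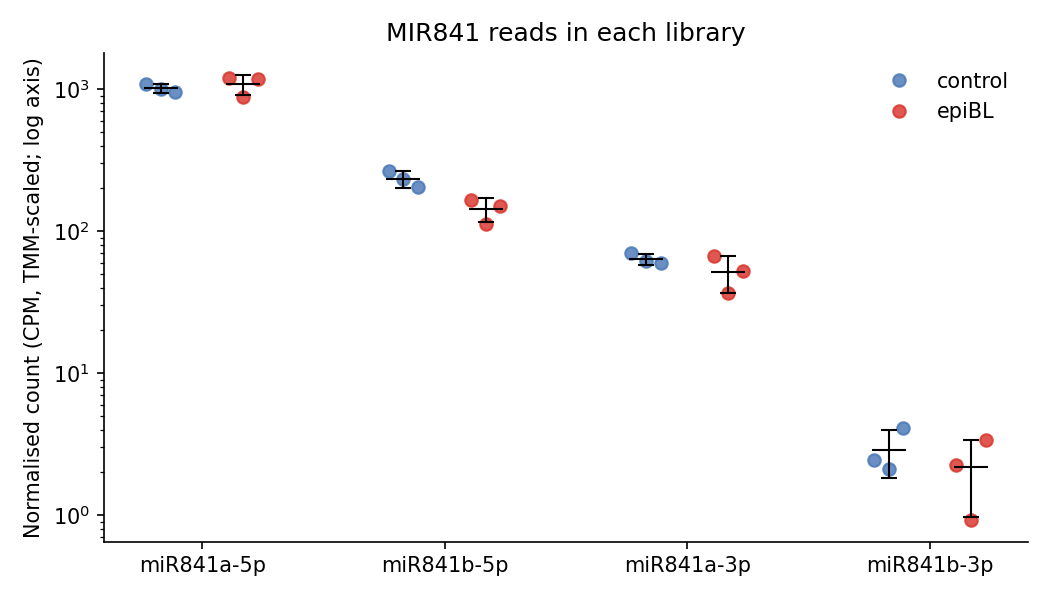
Normalised counts (CPM on TMM-scaled library totals, log axis) of the 4 MIR841 sequences, with 1 point for each library, and the mean and SD of each group of 3 in black. The control and epiBL points of miR841b-5p do not overlap, and those of the other sequences do.

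With epiBL the loci parted, as the choice of the genes implies. Normalised counts of miR841b-5p were 266, 232 and 204 CPM in control replicates 1, 2 and 3 and 167, 112 and 149 CPM in epiBL replicates 1, 2 and 3. All 3 epiBL libraries lay below all 3 controls. The control mean was 234 ± 31.3 CPM and the epiBL mean 143 ± 27.8 CPM (SD over 3 libraries each). The fitted log2 fold change was -0.72 (SE 0.14), or 0.608 of the control level.

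Normalised counts of miR841a-5p were 1094, 1007 and 951 CPM in the controls and 1190.0, 885 and 1169.5 CPM with epiBL. The groups overlapped: on this scale epiBL replicates 1 and 3 were above all controls and epiBL replicate 2 was below them. Its fitted log2 fold change was 0.09 (SE 0.12), which turned to -0.06 when libraries were scaled by total counts, a scaling that put the median of all tested miRNAs at -0.13. Without epiBL replicate 2 it was 0.23 (SE 0.10).

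miR841a-3p, which can come from either locus, was at 70.2, 61.5 and 59.4 CPM in the controls and at 66.5, 36.4 and 52.6 CPM with epiBL. The groups overlapped through epiBL replicate 1, and the fitted log2 fold change was -0.31 (SE 0.18). It ranged from -0.07 without epiBL replicate 2 to -0.54 without epiBL replicate 1. miR841b-3p was at 2.46, 2.10 and 4.12 CPM in the controls and at 2.26, 0.928 and 3.35 CPM with epiBL, and its groups overlapped as well.

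In edgeR's quasi-likelihood test over all 148 sequences, 8.11% were called at an adjusted p under 0.05, 2.70% higher and 5.41% lower with epiBL. Of the 3 MIR841 sequences tested, 1 was among the lower calls, miR841b-5p, and since this contrast chose the genes, nothing is read from that count. Groups did not overlap in 27.7% of the tested sequences, 17.6% lower and 10.1% higher, and among the 3 MIR841 sequences in miR841b-5p alone. The authors' deposited table gives signed fold changes of 1.07 for miR841a-5p, -1.63 for miR841b-5p, -1.23 for miR841a-3p and -1.47 for miR841b-3p, a minus sign meaning lower with epiBL.

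The share of 5p reads that carried the MIR841b base does not depend on how libraries are scaled. It was 19.6% (95% exact Clopper-Pearson interval 18.6 to 20.6), 18.7% (17.7 to 19.8) and 17.6% (16.6 to 18.8) in control replicates 1, 2 and 3. With epiBL it was 12.3% (11.4 to 13.3), 11.3% (10.3 to 12.2) and 11.3% (10.1 to 12.7). Every epiBL share was below every control share, and the intervals, which cover counting error only, did not overlap between the groups. The mean share was 18.6% ± 0.968 over the 3 controls and 11.6% ± 0.576 over the 3 epiBL libraries (SD). As a ratio, miR841a-5p had 4.38 ± 0.281 times the reads of miR841b-5p in controls and 7.62 ± 0.415 times with epiBL (SD, n = 3 each). The sum of both 5p rows was 1251 ± 103 CPM in controls and 1224 ± 198 CPM with epiBL (SD, n = 3 each). These shares and ratios restate the contrast that chose the genes and carry no test.

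**Figure D3:**
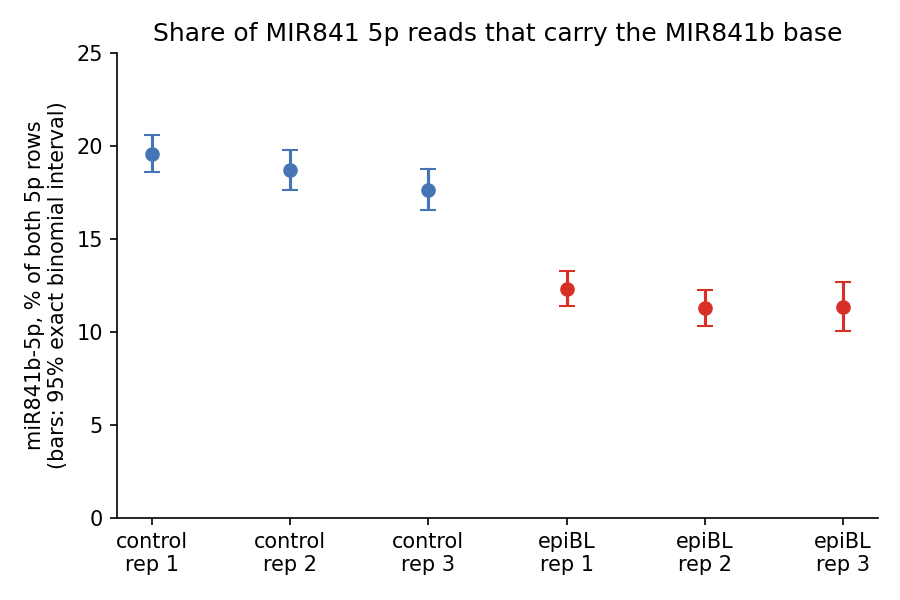
Share of all MIR841 5p reads that belong to miR841b-5p, in percent, for each library, with 95% exact binomial intervals. The 3 controls lie between 17.6% and 19.6% and the 3 epiBL libraries between 11.3% and 12.3%.

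Within each group, the 5p rows of both loci varied together on TMM-scaled totals. As deviations of log2 CPM from the group mean, miR841a-5p and miR841b-5p had a Pearson r of 0.964 over the 6 libraries, and miR841b-5p and miR841a-3p one of 0.942. Without taking off the group means, r was 0.240 for the first pair and 0.858 for the second. A sequence of another family, miR162a/b-3p, reached 0.983 with miR841a-5p as deviations, so a high r was not particular to the MIR841 rows. The values of a library share its scaling factor, so these r values are a description of these libraries. On TMM-scaled totals both 5p rows were highest in replicate 1 and lowest in replicate 3 of the controls, and highest in replicate 1 and lowest in replicate 2 with epiBL. On plain library totals miR841a-5p was instead highest in control replicate 2, at 1111 CPM beside 1092 in replicate 1, while miR841b-5p stayed highest in replicate 1.

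**Figure D4:**
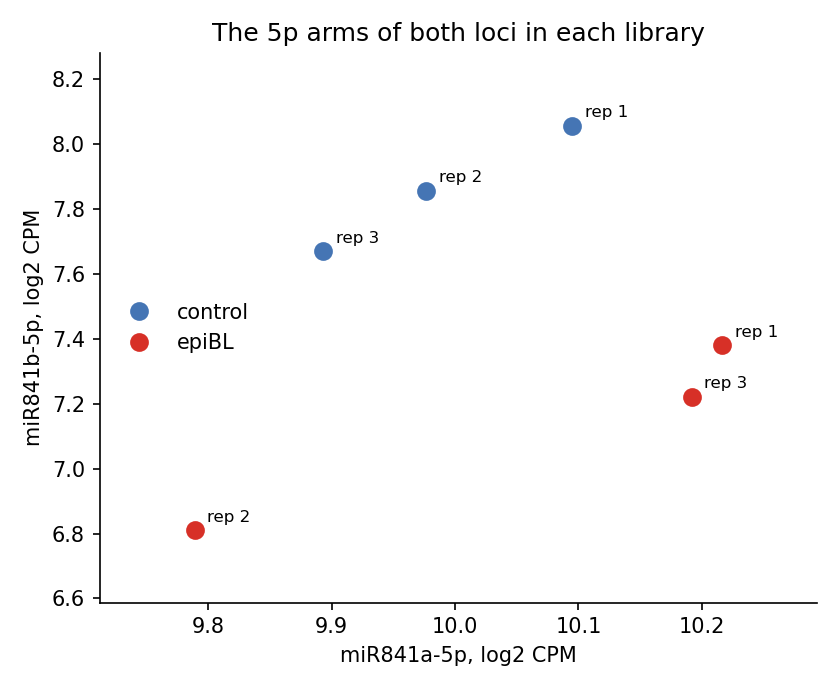
log2 CPM (TMM-scaled totals) of miR841b-5p against that of miR841a-5p, with 1 point for each library (blue controls, red epiBL). Within each group the points rise together, and the 3 epiBL points lie below the 3 control points on the miR841b-5p axis.

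Reads of the 5p rows are told apart by 1 base, so other such neighbours in the table are set beside them. Among 20 pairs of rows that differ by 1 substitution, with at least 1000 reads over the 6 libraries in the larger, the smaller row held from 0.0284% (miR398a-3p against miR398b/c-3p) to 76.5% (miR396a-5p against miR396b-5p) of the reads of the larger. miR841b-5p held 18.8% of those of miR841a-5p. How many of its reads are misread copies of miR841a-5p was not tested.

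The parting of the MIR841 5p arms was then set beside that of other related sequences. There were 45 pairs of tested sequences from the same family and arm, in 20 families, and their log2 fold changes differed by a median of 0.29. miR841a-5p and miR841b-5p differed by 0.80 and ranked 7 of the 45. The 5 pairs with the largest differences were miR156a-f-5p and miR156g-5p (1.97), miR156d-3p and miR156f-3p (1.51), miR398a-5p and miR398b/c-5p (0.95), miR156b-3p and miR156f-3p (0.94), and miR167a-3p and miR167c-3p (0.87). miR156f-3p, also in the pair ranked 6, was scarce, at 1.86 ± 1.46 CPM in controls and 3.74 ± 0.414 CPM with epiBL (SD, n = 3 each). Its groups overlapped and its log2 fold change had an SE of 0.50, so the ranks of its pairs are uncertain. Among the 17 pairs only 1 substitution apart, whose median was 0.15, the MIR841 pair ranked 2, after the miR156 pair. Pairs share members and the MIR841 pair was picked for its difference, so these ranks are a description.

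**Figure D5:**
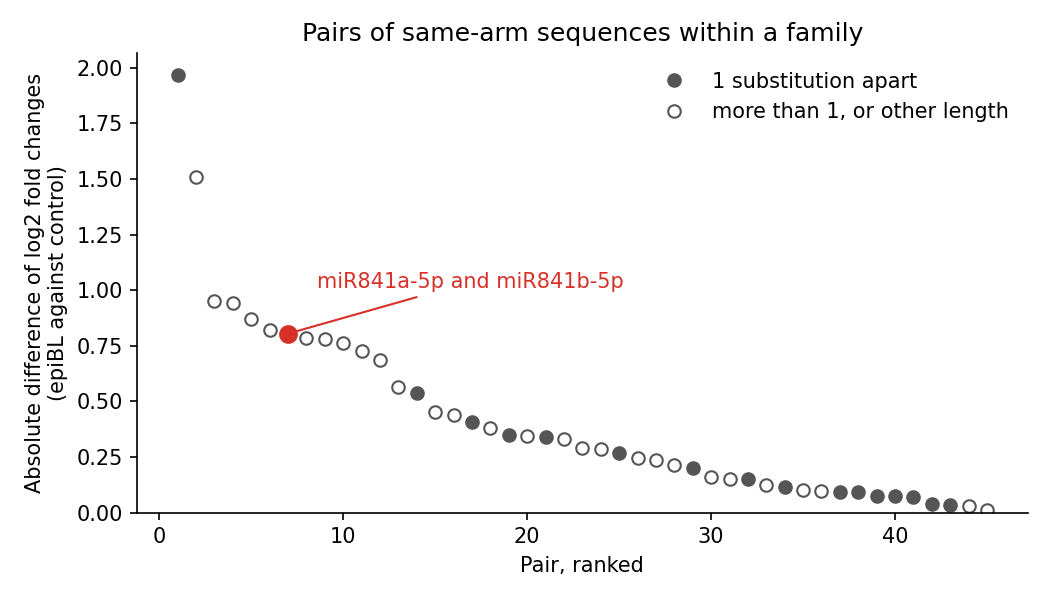
Absolute difference between the log2 fold changes (epiBL against control) of 45 pairs of same-arm sequences within a family, ranked; filled points are pairs 1 substitution apart. The MIR841 5p pair (red) differs by 0.80 and ranks 7.

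Across the 6 libraries, the log2 CPM profile most like that of miR841b-5p was that of miR398a-5p, the 5p arm of a copper-responsive precursor, with a Pearson r of 0.924. miR399a-3p, of a family that acts in phosphate homeostasis, followed with 0.917, and miR840-5p with 0.884. The profiles most like that of miR841a-5p were those of miR162a/b-3p (0.970), which targets the Dicer-like enzyme DCL1, miR161-3p (0.928) and miR158b-3p (0.818). The first of these lists holds sequences whose mean was lower with epiBL, at log2 fold changes of -1.11, -0.27 and -0.32, and those of the second list were at 0.06, 0.01 and 0.15. Both lists were picked by r over both groups together, so these directions follow in part from the choice. As deviations from the group means, r was 0.631, 0.593 and 0.921 for the first list and 0.983, 0.942 and 0.810 for the second. The likeness of miR398a-5p and miR399a-3p to miR841b-5p had a lower r within the groups than over all libraries.

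Most families numbered near miR841 were first described in Arabidopsis and are absent from distant plants, and they give a setting for it. The families miR822 to miR870, without miR827, miR828 and miR858, which other plants share, had 62 sequences of 40 families in the table, of which 33 were tested. Of these 33, 0 were called higher and 2 lower with epiBL in edgeR's test, miR841b-5p and miR863-3p, and 31 were not called, beside 2.70% called higher and 5.41% lower of all tested sequences. Without the MIR841 sequences, 1 of 30 was called lower. For miR863-3p the control mean was 51.9 ± 3.33 CPM and the epiBL mean 33.5 ± 6.81 CPM (SD over 3 libraries each). Its fitted log2 difference was -0.60 (SE 0.16). The median log2 fold change of the list was -0.02, or -0.02 without the 3 MIR841 sequences, beside 0.0046 for all tested sequences. The most abundant were miR846-3p, which targets jacalin-type lectins, with 2542 ± 207 and 2687 ± 49.3 CPM (SD, n = 3 each), miR824-3p with 1499.7 ± 58.5 and 1455 ± 5.87 CPM (SD, n = 3 each), and miR841a-5p, in controls and with epiBL respectively. By level, miR841a-5p was thus below only those 2 in that list.

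The 300 bases before each annotated precursor were searched on both strands for the elements bound by BZR1 and BES1. CGTGTG and CGTGCG, forms of the brassinosteroid response element, had 0 matches before MIR841a and 0 before MIR841b, and were found before 7.06% and 1.53% of 326 annotated miRNA genes. CANNTG, the E-box, was found 3 times before MIR841a and 2 times before MIR841b, and at least once before 63.8% of the 326. The precursors are annotated with different lengths, so the searched windows of the pair are not at the same place in the duplicated sequence.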

How the data were processed

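The authors deposited raw read counts for each mature sequence and library. Per the file headers these are reads that match the mature sequence exactly, so reads with other ends are not counted. Per the submitters' processing notes reads were processed against TAIR10. Not given in the sources used here were the aligner, the read trimming and the miRNA database. The deposited p-value (an EDGE test, not adjusted), its −log10 column, the log2 fold change and the signed fold change (entered as a score) are the authors' own, and only the signed fold is printed. Per the file headers their test set 0 min against 90 min. The labels state 90 min in either group and were followed.

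Counts were kept by filterByExpr (minimum count 10, total 15), scaled by TMM and tested with edgeR 4.0.16 (R 4.3.3, quasi-likelihood, robust, Benjamini-Hochberg, threshold 0.05), with DESeq2 1.42.0 as an alternative. Standard errors were derived from the fold change and the F statistic (log2 change over root F). Ratios used counts plus 0.5 and exact sign-flip permutation tests (scipy 1.17.1). Intervals cover counting error only, since PCR copies count as reads. Sequences were matched exactly to TAIR10.1 (NCBI RefSeq), folded with RNAfold 2.7.2 and aligned with blastn 2.17.0+. The edgeR procedure was tested on simulated counts. The replicates are labelled biological with no word on separate cultures, and p-values then reflect only sample-to-sample spread. Every pair of libraries differed by more than sampling noise.

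The genes and lists were chosen with earlier results of these data known. Named sequences are all MIR841 rows, the 3 most alike in profile to each 5p row, the 5 most different family pairs, and the called and 3 most abundant young-family sequences. Sums of both loci per arm and the minimum of 1000 reads for 1-substitution pairs were added after seeing the data.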

Additional observations from a re-analysis of the deposited data

How the results depend on the processing

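The number of sequences called, 12, became 22 with a replicate block, though the shared numbers do not pair the libraries (correlations of deviations -0.09, 0.14 and -0.11). Leaving out single libraries gave between 5 and 25 calls. The number was 5 if control replicate 2 was dropped, 5 if epiBL replicate 3 was, 7 if control replicate 3 was and 25 if epiBL replicate 2 was. For all of these changes the cause was not tested. Other scalings, no filter and DESeq2 gave 13 to 17. The log2 fold change of miR841b-5p stayed between -0.86 and -0.55 under every alternative run, while miR841a-5p turned negative (-0.06) under total counts alone. miR841b-3p had a value of -0.58 (SE 0.54) with no filter, and where it passed the filter with 1 library left out, from -0.77 without control replicate 2 to -0.11 without epiBL replicate 2.

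With the controls alone the log2 ratios were 4.00 and 6.33 for 5p over 3p in the rows labelled MIR841a and MIR841b. They were 2.13 and 4.46 for the rows labelled MIR841a over those labelled MIR841b in the 5p and 3p arms. With 1 library left out they ranged from 4.12 to 4.25, from 6.09 to 6.37, from 2.44 to 2.62 and from 4.41 to 4.67. These fits cannot pass 0.05, since 3 libraries allow no p below 0.25 and 5 none below 0.0625. Summing both loci in each arm, added after seeing the data, gave 4.38 in place of 4.20 and 6.20. Summing both rows labelled with each locus gave a log2 ratio of 2.58, in place of 2.53 for the 5p and 4.53 for the 3p arm. On the reference assembly both 3p rows match both loci, so of these only the 5p ratio separates the loci. Depth limits miR841b-3p most, with 4 to 17 reads in a library.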
